A study of Homo sapiens with 8 samples.

Results

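Flat (2-D) neural cultures whose cell names carry Cocu, read here as co-culture, were compared with flat cultures whose names carry Mono, read as monoculture. All cells derive from the human embryonic stem cell line H1, and their RNA was read by split-pool single-cell sequencing, in which fixed cells gain their barcodes over successive rounds of pooling. Each cell name begins with a culture tag, and the 12 tags compared were chosen by that name: 4 tags of 2DCocuVehic and 4 of 2DCocuAcMor for co-culture, and 2 tags of 2DMonoVehic and 2 of 2DMonoAcMor for monoculture. They hold 10946 of the 43693 cells of the series and 12 of its 46 tags, with 6919 cells in co-culture and 4027 in monoculture. The series as a whole concerns responses of 2-D and 3-D cultures to dopamine, cocaine and morphine. The deposited samples are 8 sublibraries that mix all cultures, so the groups come from the cell names. The labels do not spell out Vehic and AcMor, name the cells that shared the co-culture dish, give the age of the cultures or say how 2-D cultures were dissociated. They also do not say whether numbered tags are separate cultures, so the p-values measure the spread between tags, and the arrangement cannot be told apart from whatever handling came with it.

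Neurons and glia are patterned during development along the axes of the neural tube. Forebrain progenitors express factors such as EMX2 and OTX2, inhibitory neurons of the ventral forebrain depend on the DLX homeobox genes, and the hindbrain and spinal cord are marked by HOX genes and hold inhibitory neurons that release glycine. Floor plate cells at the ventral midline secrete the morphogen SHH and use FOXA factors, while glial cells and ependymal cells line and support the tissue.

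Tags held between 317 and 1959 cells and between 5027412 and 58777177 counts, with a median of 7994 to 20732 counts per cell. Monoculture Vehic tag 1 was the largest and deepest. Where the counts of an arrangement are split by cluster below, they are pooled over its tags without weights. The monoculture splits therefore describe mainly Vehic tag 1, which holds 58777177 counts. The median mitochondrial share of a tag's cells, a sign of RNA quality, lay between 0.717% and 4.19%, both ends in monoculture. All 12 tags occurred in all 8 sublibraries, and correlations of log CPM between tags lay between 0.941 and 0.986. Of the 10946 cells, 1131 had a whole barcode that another of these cells also carried. Whether the cells that share a barcode lie in different sublibraries was not examined. CPM below are counts, scaled to the same library total, over all cells of a tag after TMM scaling, a correction for composition. Where a level over all cells differs, fewer cells of a type and less RNA per cell cannot be told apart.

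The cells of co-culture lay largely in clusters that monoculture hardly filled. Clustering of the whole series gave 41 clusters, made without 335 genes of the lists and markers used here, and their numbers serve only as names. In 6 clusters (3, 8, 15, 29, 34 and 39) over 90% of the cells came from co-culture tags, of any treatment. Together they held 48.8% to 72.2% of the cells of each co-culture tag and 0.902% to 3.15% of each monoculture tag. These clusters were picked for that difference, and genes that differ between arrangements helped to draw them, so the shares describe them and were not tested.

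Cluster 3 took 26.6%, 28.4%, 34.7% and 30.3% of cells in the 4 co-culture Vehic tags and 11.9%, 15.01%, 15.3% and 16.4% in the 4 AcMor tags. Over the 4 monoculture tags it held 1 cell. Its leading genes by fold included ALDH1L1, a folate enzyme used as an astrocyte marker, ME1, a cytosolic malic enzyme that makes NADPH, and TTC6. No fixed class had 3 markers in it, and it was left unnamed. Cluster 15 held 5.05% to 15.01% of each co-culture tag and 0 monoculture cells. It was led by SLC6A5, the transporter that recaptures glycine in glycinergic neurons, PAX2, a factor of hindbrain and spinal cord inhibitory neurons, and SLC30A3, a vesicular zinc transporter, and 3 of 8 neuron markers passed in it, which is under the 40% that naming needed. Cluster 8, led by RASSF9 and CYTOR, held 11.3% to 19.5% of co-culture tags and 0.541% to 2.84% of monoculture tags, and it carried 5 of 8 astrocyte markers and 5 of 8 ciliated cell markers. Cluster 34 carried all 8 cycling markers with ALDH1L1 among its leading genes, and was left unnamed for that mix. Doublets, pairs of cells under 1 barcode, were called for 99.03% of cluster 29, 72.1% of cluster 39 and 49.9% of cluster 34, against 3.35% of cluster 3 and 6.59% of cluster 15.

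Monoculture had its own abundant group. Cluster 11 held 30.2% and 44.5% of cells in the Vehic tags and 13.9% and 18.2% in the AcMor tags of monoculture, against 0.806% to 3.99% in co-culture. Its leading genes included CCN2 and TAGLN, which are known in cells under tension, the chemokine CXCL14 and EDN1, the precursor of the vessel-constricting peptide endothelin-1. Its cells were deep, with a median of 23087 counts, and 34.2% of them were called doublets.

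**Figure D1:**
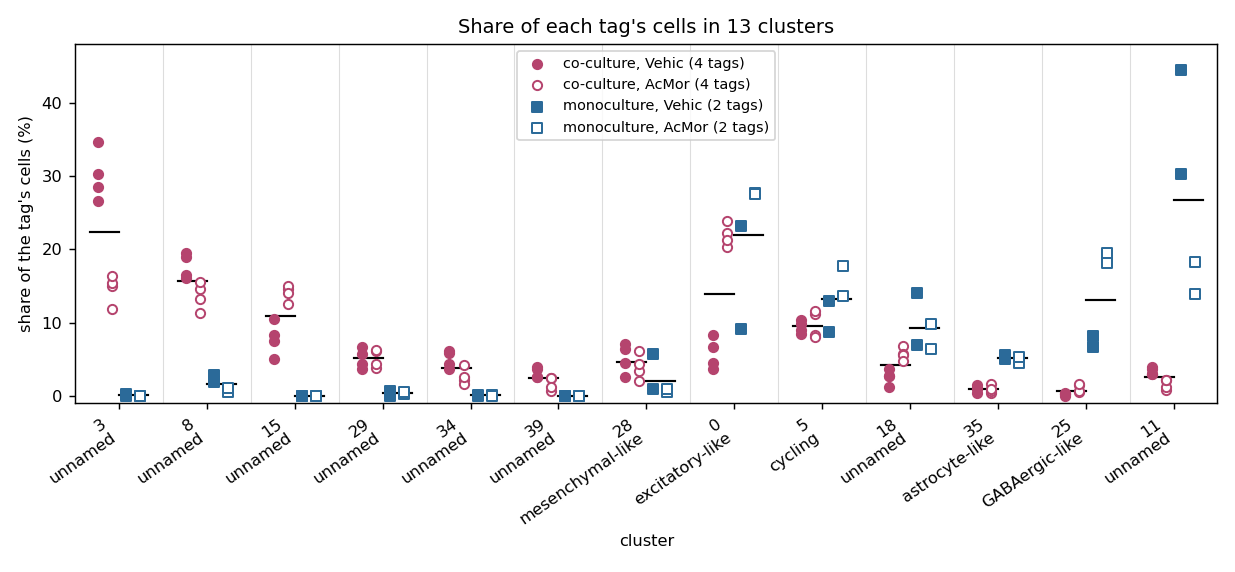
Share of each tag's cells (percent, vertical axis) in 13 clusters (horizontal axis). Circles are co-culture tags and squares monoculture tags, filled for Vehic and open for AcMor, and black bars are the means over 8 and 4 tags. Clusters 3 and 15 sit at or near 0 in all 4 monoculture tags, and cluster 11 lies between 13.9% and 44.5% there.

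Among the cell classes that the markers could name, 4 took a smaller share of the cells in co-culture. GABAergic neuron-like cells, mostly cluster 25, made up 0.687% ± 0.615 (SD, n = 8) of co-culture tags and 14.4% ± 7.28 (SD, n = 4) of monoculture tags. In monoculture their share was 8.73% and 7.57% in the Vehic tags and 20.7% in each AcMor tag, and no co-culture tag exceeded 1.81%. Tags were exchanged within treatment in a two-sided exact permutation test, which gave an adjusted p of 0.00741 for the difference of -13.8 percentage points; the smallest raw p it can give is 0.00444. Astrocyte-like cells (cluster 35, led by GFAP and AQP4) made up 0.926% ± 0.448 (SD, n = 8) in co-culture and 5.09% ± 0.433 (SD, n = 4) in monoculture, with an exact permutation adjusted p of 0.00741. The ranges of the arrangements did not overlap for either class.

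The excitatory neuron-like class (cluster 0) fell from 21.9% ± 8.76 (SD, n = 4) in monoculture to 13.8% ± 8.79 (SD, n = 8) in co-culture, with an exact permutation adjusted p of 0.00741. Its share in co-culture was 3.72% to 8.28% in Vehic tags and 20.3% to 23.9% in AcMor tags, so the arrangements separated only within a treatment. Without monoculture Vehic tag 1 the difference was -4.54 points in place of -8.10. Cycling cells (mostly cluster 5) made up 9.59% ± 1.36 (SD, n = 8) against 14.3% ± 3.93 (SD, n = 4), with an exact permutation adjusted p of 0.0222, which became 0.0667 without any of monoculture Vehic tag 2, AcMor tag 1 or AcMor tag 2. Mesenchymal-like cells made up 4.72% ± 1.97 (SD, n = 8) and 2.30% ± 2.48 (SD, n = 4), with an exact permutation adjusted p of 0.0933, which became 0.0467 without co-culture Vehic tag 1 and 0.0333 without monoculture Vehic tag 2.

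Shares depend on their denominator and on which clusters join a class. Among the cells outside the 6 clusters that co-culture fills, excitatory neuron-like cells made up 31.8% ± 14.9 (SD, n = 8) in co-culture and 22.4% ± 8.80 (SD, n = 4) in monoculture, and cycling cells 25.2% ± 5.77 (SD, n = 8) and 14.6% ± 3.91 (SD, n = 4), so both differences turned positive. GABAergic neuron-like cells stayed lower there, at 1.58% ± 1.2 (SD, n = 8) and 14.7% ± 7.29 (SD, n = 4). With cluster 34 counted as cycling the difference was -0.921 points, and with cluster 8 counted as astrocyte-like that class was 9.91 points higher in co-culture. These 3 ways of counting were chosen after the clusters were seen. Cluster 15, which carries GAD2 (below), was left unnamed and is in no count of GABAergic neuron-like cells. With cells thinned to 3000 counts, 5.48% ± 2.13 (SD, n = 8) had a GAD2 count in co-culture and 13.24% ± 4.51 (SD, n = 4) in monoculture. For GAD1 these shares were 5.43% ± 1.48 (SD, n = 8) and 13.55% ± 4.63 (SD, n = 4). Astrocyte markers counted this way did not all follow the astrocyte-like class. GFAP was found in 15.03% ± 3.305 (SD, n = 8) and 9.57% ± 2.045 (SD, n = 4). For ALDH1L1 the shares were 15.63% ± 5.336 (SD, n = 8) and 2.952% ± 0.5633 (SD, n = 4). AQP4 was lower in co-culture, at 0.07847% ± 0.09196 (SD, n = 8) and 0.2408% ± 0.2507 (SD, n = 4).

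Over all cells, the quasi-likelihood test of edgeR, with the treatment in the model, called 6283 of 22137 genes, 28.4% of those tested, at an adjusted p of 0.05. Of these, 3567 were higher in co-culture (16.1%) and 2716 lower (12.3%). For 13.3% of genes all 8 co-culture tags lay on one side of all 4 monoculture tags, 12.8% were also called, and 8.14% were called with a difference of at least 1 on the log2 scale. The median log2 fold change over all genes was 0.04 with TMM scaling and -0.00 with RLE scaling, another size factor method, and the share of calls that were higher was 56.8% and 49.2%.

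The genes with the largest increases in co-culture included the markers of cluster 15. Genes named by size, here and below and within classes, were drawn from called genes whose groups do not overlap. Their separation is thus a condition of naming and no added support. SLC6A5 (chr11:20599400-20659285, GRCh38) had 10.5, 26.1 and 38.7 CPM as lowest, median and highest of the 8 co-culture tags, and 0.456, 0.398, 0.802 and 0.288 CPM in the monoculture tags Vehic 1, Vehic 2, AcMor 1 and AcMor 2. All co-culture tags stood far above all monoculture tags, a log2 fold change of 5.51 ± 0.29 (SE) with an adjusted p of 4.26e-10. PAX2 (chr10:100735603-100829941) had 29.9, 50.6 and 70.5 CPM in co-culture and 5.16, 1.39, 1.00 and 3.88 CPM in monoculture, a log2 fold change of 3.79 ± 0.39 (SE), which was 4.88 without monoculture Vehic tag 1. Of the SLC6A5 counts of co-culture, 66.4% came from cluster 15 and 29.3% from the doublet-rich cluster 29; for PAX2 these shares were 63.3% and 32.2%. TFAP2B, an AP-2 transcription factor, and SLC30A3 rose by 3.60 and 3.85 on the log2 scale, with 67.4% and 66.1% of their co-culture counts from cluster 15. Both genes, and SLC6A5, reached the filter on low counts through the co-culture tags alone, where they are high. Their p-values are no separate support.

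A second set of increases came mainly from cluster 3. TTC6, a gene with tetratricopeptide repeats, had 265, 336 and 499 CPM as lowest, median and highest in co-culture and 15.1, 12.9, 15.04 and 22.4 CPM in monoculture, a log2 fold change of 4.42 ± 0.20 (SE) with an adjusted p of 6.73e-10. Its neighbour FOXA1, a forkhead factor of the floor plate and of endodermal organs, had 5.27, 9.12 and 10.9 CPM against 0.569, 0.398, 0.735 and 0.431 CPM, a log2 fold change of 3.89 ± 0.27 (SE). For both genes no co-culture tag came near a monoculture tag, and cluster 3 gave 65.9% of TTC6 and 61.9% of FOXA1 counts in co-culture. TTC6 (chr14:37595847-38041442, plus strand) and FOXA1 (chr14:37589984-37596059, minus strand) overlap by 213 bases at their starts in GENCODE v29, and whether counting used strand is not stated, so reads in the overlap cannot be assigned. In RefSeq the starts are 379 bases apart and the genes point away from each other. The 250 bases before the RefSeq start of TTC6 (GRCh38.p14, chr14:37595379-37595628, plus strand) lie wholly between the RefSeq starts of this pair that moved together. In GENCODE v29 the same window lies inside the FOXA1 gene model. The window was searched on both strands for a forkhead core (TGTTTAC), a form of the AP-1 site (TGACTAA) and a GATA core (AGATAA). It holds none of these runs of letters and is shown in lower case.
TTC6 upstream: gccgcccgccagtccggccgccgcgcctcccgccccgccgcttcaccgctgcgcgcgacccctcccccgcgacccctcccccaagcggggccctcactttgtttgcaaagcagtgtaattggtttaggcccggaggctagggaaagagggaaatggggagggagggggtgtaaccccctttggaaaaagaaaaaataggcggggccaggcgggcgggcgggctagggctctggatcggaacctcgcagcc

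ME1 rose from 4.75 to 11.9 CPM in the monoculture tags to 52.6 to 118 CPM in the co-culture tags, a log2 fold change of 3.34 ± 0.15 (SE). The other genes named by the size of their increase were SLCO6A1, an organic anion transporter (log2 fold change 4.56), PTGDS, prostaglandin D2 synthase (3.58), SLC5A12, a lactate transporter (3.50), the pseudogene FAR2P1 (3.14) and GNGT1, a G-protein gamma subunit (3.14). With each tag left out in turn, PTGDS ran from 3.34 to 4.23. PTGDS and SLC5A12 reached the filter on low counts through the co-culture tags alone, where they are high. PTGDS differed in source, with 58.3% of its co-culture counts in the mesenchymal-like cluster 28. FAR2P1 shares sequence with its parent gene, and its counts are uncertain.

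The 12 decreases named by their size were in 9 genes with most of their monoculture counts in cluster 11, and in DLX5, DLX1 and SCGN. These shares of counts pool the tags, and Vehic tag 1 gave most counts of monoculture. EDN1 (chr6:12290363-12297194) had 0.641, 1.02 and 2.04 CPM as lowest, median and highest in co-culture, and 17.9, 11.1, 8.76 and 12.9 CPM in the 4 monoculture tags. Every monoculture tag exceeded every co-culture tag, a log2 fold change of -3.49 ± 0.26 (SE) with an adjusted p of 1.87e-08, and 92.9% of EDN1 counts in monoculture came from cluster 11. CCL2, a chemokine that draws monocytes, had 0.326, 0.512 and 1.00 CPM in co-culture and 12.98, 2.39, 3.81 and 9.78 CPM in monoculture, a log2 fold change of -3.55 ± 0.39 (SE). FBXO32, a muscle and stress-linked ubiquitin ligase subunit, had 8.30, 12.6 and 14.3 CPM and 95.5, 129, 66.3 and 99.8 CPM, a log2 fold change of -3.00 ± 0.14 (SE). ANKRD1, TAGLN, CXCL14, GALNT5, ADTRP and TMPRSS7 fell by 3.13, 2.65, 2.86, 2.55, 2.62 and 2.52 on the log2 scale, and cluster 11 held between 85.7% and 90.9% of the monoculture counts of each. Without monoculture Vehic tag 1 the values of CXCL14, TAGLN and CCL2 were -1.77, -1.96 and -2.92. The cells of that cluster are deep and 34.2% are called doublets, and the part of either in these differences was not tested.

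EDN1, one of the largest decreases, is shown with the 250 bases before its RefSeq start (GRCh38.p14, chr6:12290111-12290360, plus strand). The window ends before the start of the EDN1 model in GENCODE v29. Capitals mark matches to the same 3 motifs, 1 of each: the GATA core, which is read on the other strand, then the AP-1 form and the forkhead core. Of 35116 windows of that length in RefSeq, 9.17% hold the GATA core, 1.62% the AP-1 form and 2.98% the forkhead core on either strand. A match is a run of letters and not a measured binding site.
EDN1 upstream: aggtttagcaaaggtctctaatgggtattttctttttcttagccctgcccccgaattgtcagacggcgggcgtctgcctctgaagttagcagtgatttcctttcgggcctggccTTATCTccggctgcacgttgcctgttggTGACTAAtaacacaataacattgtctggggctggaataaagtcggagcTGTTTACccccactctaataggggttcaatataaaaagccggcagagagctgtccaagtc

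DLX5 (chr7:97020392-97024950) had 0.114, 0.845 and 1.55 CPM as lowest, median and highest in co-culture and 2.77, 2.58, 11.6 and 10.6 CPM in monoculture, a log2 fold change of -2.84 ± 0.33 (SE). DLX1 (chr2:172084740-172089677) had 0.570, 1.47 and 2.76 CPM against 5.07, 5.57, 17.6 and 17.97 CPM, a log2 fold change of -2.60 ± 0.28 (SE). In both genes the monoculture AcMor tags were higher than the Vehic tags, and all 4 stood above co-culture. SCGN, a calcium sensor of interneurons, fell by 2.51 on the log2 scale. Cluster 25 gave 51.1%, 45.7% and 67.0% of the monoculture counts of DLX5, DLX1 and SCGN.

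**Figure D2:**
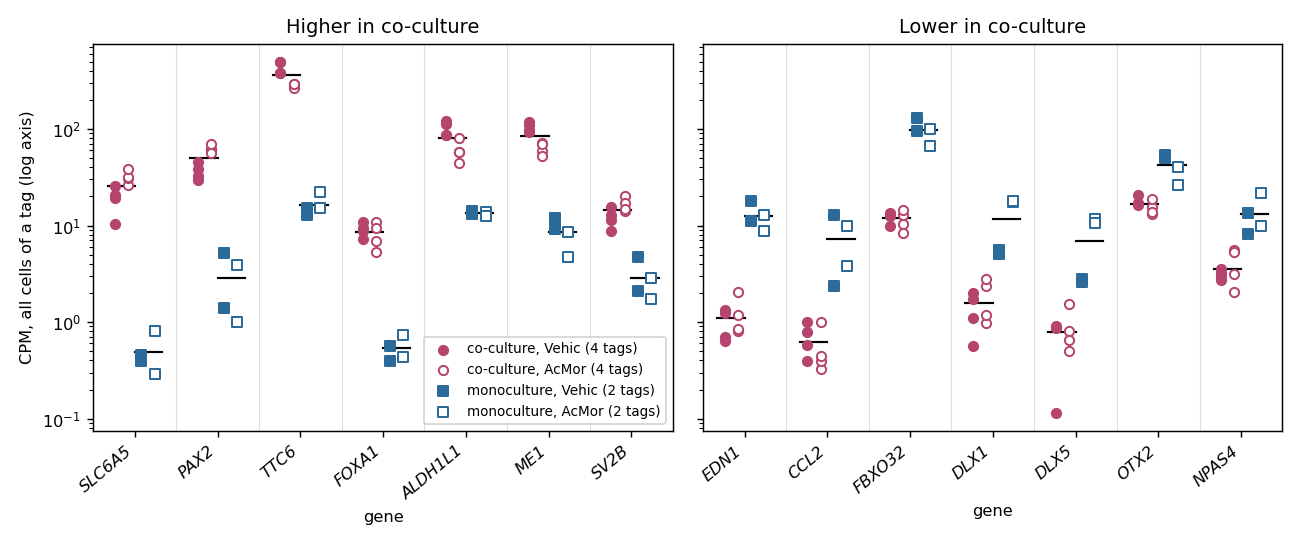
CPM over all cells of each tag (log axis) for 7 genes that were higher and 7 that were lower in co-culture. Circles are co-culture and squares monoculture tags, filled for Vehic and open for AcMor, with black bars at the means over 8 and 4 tags. No circle meets a square within any of the 14 genes, which for those named by size was a condition of naming.

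Genes of the dorsal telencephalon list were lower in the sums over all cells of co-culture. Over all genes tested 16.1% were higher and 12.3% lower, and the list counts here and below are to be set beside these shares. In the dorsal telencephalon list 9 of 12 tested members fell and 0 rose, with a median log2 fold change of -0.76. EMX2, which patterns the cortex, had 7.29, 10.3 and 13.8 CPM as lowest, median and highest in co-culture and 18.7, 18.3, 20.8 and 22.4 CPM in monoculture. The groups did not overlap, with a log2 fold change of -0.96 ± 0.14 (SE). BCL11B and PAX6 fell by 0.82 and 0.78. Within excitatory neuron-like cells (below) the list median was 0.02, with 0 of 11 tested members higher and 1 lower. Within cycling cells it was -0.02, with 1 of 11 higher and 4 lower, against 7.11% and 7.51% of all genes there. EMX2 and PAX6 did not pass in cycling cells. Of the ventral telencephalon list 6 of 12 members could be tested, and DLX1, DLX2, DLX5 and SIX3 fell, the call of SIX3 being lost with doublets removed; NKX2-1, LHX6 and LHX8 were too low to test.

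The hindbrain and spinal cord list had 4 of 14 members above the filter on low counts. HOXA2, HOXA3 and HOXD3 reached it through the co-culture tags alone, where they are high, so no count or median over the list is given. HOXA2, which specifies hindbrain segments, had 1.42, 2.25 and 3.03 CPM as lowest, median and highest in co-culture and 0 in all 4 monoculture tags. Against a floor of 3 counts over the 4 tags together, 0.0377 CPM, it was at least 60.2-fold higher, and at least 20.4-fold without monoculture Vehic tag 1, the deepest. HOXA3 had 0.326 to 1.25 CPM in co-culture, and in monoculture 0.0190 CPM in Vehic tag 1 and 0 in the other tags. HOXD3 had 1.17, 2.24 and 4.29 CPM against 0.569, 0.398, 0.334 and 1.44 CPM, a log2 fold change of 1.99 ± 0.39 (SE), with overlapping groups. Clusters 3 and 15 each gave 39.5% of HOXA2 counts in co-culture. The levels are low, and the 10 untested HOX and related genes are not shown to be absent. In the other lists too a gene could reach the filter through 1 arrangement alone, as DLX5, FOXA1, SLC6A5, DDC, AQP4, JUNB and BMP4 did, so list counts and medians describe the members tested.

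The midbrain and floor plate list was split, with 4 of 9 tested members higher and 3 lower and a median of 0.49. SHH had 2.37, 3.51 and 5.25 CPM as lowest, median and highest in co-culture and 0.930, 0.199, 1.67 and 1.01 CPM in monoculture, without overlap, a log2 fold change of 1.82 ± 0.32 (SE). With FOXA1 (above), LMX1B and CORIN also rose, by 1.06 and 0.49. OTX2, a forebrain and midbrain factor, had 13.3, 16.5 and 20.5 CPM against 50.3, 53.9, 26.5 and 40.1 CPM, a log2 fold change of -1.33 ± 0.13 (SE). EN2 and LMX1A fell by 1.13 and 0.69. The calls of SHH and EN2 were lost in AcMor tags alone. Of SHH counts in co-culture 74.1% came from cluster 3, and of OTX2 counts in monoculture 86.2% came from cluster 11. FOXA2, EN1 and PITX3 were too low to test.

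Transmitter genes changed in an uneven way. In the GABA and glycine list 1 of 15 members rose (SLC6A5) and 9 fell, with a median of -0.66. GAD1, which makes GABA, had 16.9, 24.8 and 39.8 CPM as lowest, median and highest in co-culture and 40.6, 40.2, 77.2 and 75.6 CPM in monoculture, a log2 fold change of -1.13 ± 0.12 (SE). The highest co-culture tag lay just below the lowest monoculture tag. GAD2 fell by 0.96 with overlapping groups. The cells that carried GAD2 differed: in co-culture 60.0% of its counts came from cluster 15, the SLC6A5 and PAX2 cluster, and 4.84% from cluster 25, while in monoculture 56.8% came from cluster 25 and 0 cells lay in cluster 15. Pooled over tags and without TMM scaling, its level within those clusters was 208.8 CPM in cluster 15 of co-culture and 446.5 CPM in cluster 25 of monoculture.

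In the glutamatergic list 6 of 15 members rose and 4 fell, with a median of -0.03. GRIA1, an AMPA receptor subunit, had 311, 365 and 410 CPM as lowest, median and highest in co-culture and 725, 652, 950 and 858 CPM in monoculture, a log2 fold change of -1.14 ± 0.07 (SE) with an adjusted p of 2.17e-09. Its relative GRIA4 moved the other way, with 99.6, 132 and 209 CPM against 55.5, 49.9, 61.4 and 76.2 CPM, a log2 fold change of 1.18 ± 0.12 (SE). Neither gene's groups overlapped. GRIN2A, an NMDA receptor subunit, and GRIK1, a kainate receptor subunit, rose by 1.09 and 0.98, and the vesicular transporter SLC17A6 fell by 0.95. Cluster 15 gave 33.4% of the GRIA4 counts of co-culture. Of the synaptic vesicle list 2 of 15 rose and 5 fell, with a median of -0.20. SV2B, a vesicle protein, had 8.67, 14.5 and 20.4 CPM against 2.09, 4.77, 2.88 and 1.73 CPM, a log2 fold change of 2.42 ± 0.24 (SE), with 56.8% of co-culture counts in cluster 15. STX1A rose by 0.73, and SYT4 and CPLX2 fell by 1.14 and 0.57.

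Dopamine and opioid signalling genes, which bear on the treatments of the series, were sparse. The dopaminergic list had 2 of 8 tested members higher (LMX1B, a call lost in Vehic tags alone, and DDC, lost with the replicate number as a block) and 1 lower (KCNJ6, by 0.86), with a median of 0.11; TH, the enzyme that begins dopamine synthesis, was too low to test. Of the dopamine and opioid receptors 7 of 9 were tested, 1 rose and 1 fell, with a median of 0.08. OPRM1, the mu-opioid receptor, had 2.27, 3.42 and 4.09 CPM as lowest, median and highest in co-culture and 5.50, 4.77, 5.75 and 4.17 CPM in monoculture. Its log2 fold change was -0.63 ± 0.18 (SE) with an adjusted p of 0.014, which became 0.0703 without monoculture Vehic tag 1; the call was also lost without monoculture AcMor tag 1, in Vehic tags alone, in AcMor tags alone and with the replicate number as a block. OPRD1, the delta receptor, had 1.71, 2.32 and 3.09 CPM against 1.27, 1.59, 0.735 and 1.15 CPM, a log2 fold change of 1.06 ± 0.24 (SE). Among neuropeptide precursors 2 of 5 tested fell and 0 rose, with a median of -0.48. PENK, the enkephalin precursor, had 0.132, 1.03 and 1.83 CPM against 9.68, 5.37, 2.27 and 4.46 CPM, a log2 fold change of -2.19 ± 0.33 (SE), with 86.7% of its monoculture counts in cluster 11.

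Of the astrocyte list 1 of 10 rose and 4 fell, with a median of -0.18. ALDH1L1 had 44.8, 83.2 and 120 CPM as lowest, median and highest in co-culture and 14.1, 13.3, 13.7 and 12.5 CPM in monoculture, a log2 fold change of 2.54 ± 0.18 (SE). GJA1, the main astrocyte gap junction gene, had 20.4, 29.9 and 37.6 CPM against 135, 91.8, 51.5 and 61.1 CPM, a log2 fold change of -1.43 ± 0.21 (SE). Neither gene's groups overlapped. The water channel gene AQP4 fell by 1.49 at low level, with 75.7% of its monoculture counts in the astrocyte-like cluster 35. GFAP, an intermediate filament of astrocytes, was 63.0 ± 19.4 (SD, n = 8) and 59.5 ± 23.7 (SD, n = 4) CPM, with an adjusted p of 0.875. Its source differed, with 46.3% of co-culture counts in cluster 3 and 50.8% of monoculture counts in cluster 35.

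Of the radial glia list 4 of 10 fell and 0 rose, with a median of -0.34. FABP7, a lipid carrier of radial glia, fell by 1.15, and PTPRZ1 by 0.60. In the oligodendrocyte lineage list 6 of 10 were tested, CSPG4 and MBP rose by 1.11 and 0.58 and PDGFRA fell by 1.27, a call lost without monoculture Vehic tag 1 (adjusted p of 0.0552) and in AcMor tags alone; the list median was 0.08, and OLIG1, OLIG2, MOG and MAG, the defining markers, were too low to test. The motile cilium list had 3 of 8 higher and 0 lower, with a median of 0.68: DNAH9, an outer arm dynein, had 38.6, 51.6 and 60.6 CPM as lowest, median and highest in co-culture and 24.8, 26.04, 18.5 and 20.1 CPM in monoculture, a log2 fold change of 1.18 ± 0.10 (SE). CFAP43 and RSPH1 rose by 0.95 and 1.23, and clusters 3 and 8 together held most of the co-culture counts of all 3. FOXJ1, the factor that defines motile ciliated cells, was 1.61 ± 0.607 (SD, n = 8) and 1.05 ± 0.584 (SD, n = 4) CPM, with an adjusted p of 0.373.

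Cell cycle genes were lower, with 8 of 12 members down, 0 up and a median of -0.71. MKI67 had 61.2, 74.8 and 112 CPM as lowest, median and highest in co-culture and 114, 154, 169 and 135 CPM in monoculture, a log2 fold change of -0.90 ± 0.13 (SE), with the highest co-culture tag just under the lowest monoculture tag. CCNB1 and PCNA fell by 0.87 and 0.97. Choroid plexus genes were also lower, with 4 of 7 tested members down and a median of -0.72. TRPM3, an ion channel, had 194, 230 and 265 CPM against 538, 528, 443 and 406 CPM, a log2 fold change of -1.01 ± 0.08 (SE). TTR, the defining choroid plexus transcript, was 1.11 ± 0.682 (SD, n = 8) and 0.811 ± 0.268 (SD, n = 4) CPM.

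The WNT and BMP list had 1 of 14 tested members higher and 6 lower, with a median of -0.51. WNT5A had 18.1, 22.7 and 25.8 CPM as lowest, median and highest in co-culture and 46.5, 48.7, 40.4 and 48.2 CPM in monoculture, a log2 fold change of -1.04 ± 0.09 (SE). BMP7 had 54.4, 73.0 and 96.1 CPM against 187, 220, 124 and 121 CPM, a log2 fold change of -1.13 ± 0.09 (SE). LEF1, a WNT pathway factor and target, fell by 0.91, and AXIN2, a feedback target of the pathway, by 0.53. WNT3A rose by 0.82. Of BMP7 counts in monoculture 82.6% came from cluster 11.

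Of the extracellular matrix list 2 of 15 rose and 2 fell, near the 16.1% and 12.3% of all genes, with a median of 0.31. LAMB1, a laminin chain, fell by 0.62. COL1A2 and COL3A1 rose by 1.19 and 1.16 with overlapping groups, and lost the call when any of 7 and of 6 of the 12 tags was left out (highest adjusted p of 0.11 and 0.0907). In the muscle list TTN fell by 2.09, but monoculture AcMor tag 2 had 366 CPM against 36.8 to 55.9 CPM in the other monoculture tags. Without that tag the log2 fold change was -0.79 with an adjusted p of 0.000636. The call was lost without co-culture AcMor tag 3 or AcMor tag 4 (highest adjusted p of 0.052), in AcMor tags alone, with tags summed by number and with the replicate number as a block. Cluster 37, muscle-like, gave 36.5% of the TTN counts of monoculture.

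The hypoxia and glycolysis list had 3 of 13 higher and 1 lower, with a median of 0.06. VEGFA, a vessel growth factor, had 168, 122, 199.96 and 56.3 CPM in the co-culture Vehic tags, 145, 188, 126 and 166 CPM in the AcMor tags, and 44.7, 64.8, 55.5 and 49.9 CPM in monoculture. All co-culture tags but Vehic tag 4 exceeded monoculture, a log2 fold change of 1.46 ± 0.28 (SE) with an adjusted p of 0.00233, and 0.144 in Vehic tags alone. LDHA, which makes lactate, and PDK1, which holds back pyruvate oxidation, rose by 1.5 and 0.62, while the hexokinase HK2 fell by 0.51, a call lost without monoculture Vehic tag 1 (adjusted p of 0.084). Cholesterol synthesis had 3 of 13 higher and 1 lower, with a median of 0.11. With 16.1% of all genes higher and 12.3% lower, the list counts from hypoxia to immediate early genes are not read as results. The integrated stress response had 2 of 10 higher (DDIT3 by 0.85, TRIB3 by 0.50) and 2 lower (PSAT1 and ASNS), with a median of -0.02. The call of ASNS was lost without monoculture Vehic tag 1 (adjusted p of 0.145) or AcMor tag 1, and that of TRIB3 with doublets removed, with no filter on low counts or with tags thinned to the smallest total. Among immediate early genes 1 of 12 rose and 3 fell, with a median of -0.10. NPAS4, an activity-induced neuronal factor, had 2.06, 3.21 and 5.54 CPM as lowest, median and highest in co-culture and 13.6, 8.15, 21.5 and 9.92 CPM in monoculture, a log2 fold change of -1.94 ± 0.23 (SE), and FOS was 14.5 ± 4.84 (SD, n = 8) and 16.9 ± 3.01 (SD, n = 4) CPM.

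**Figure D3:**
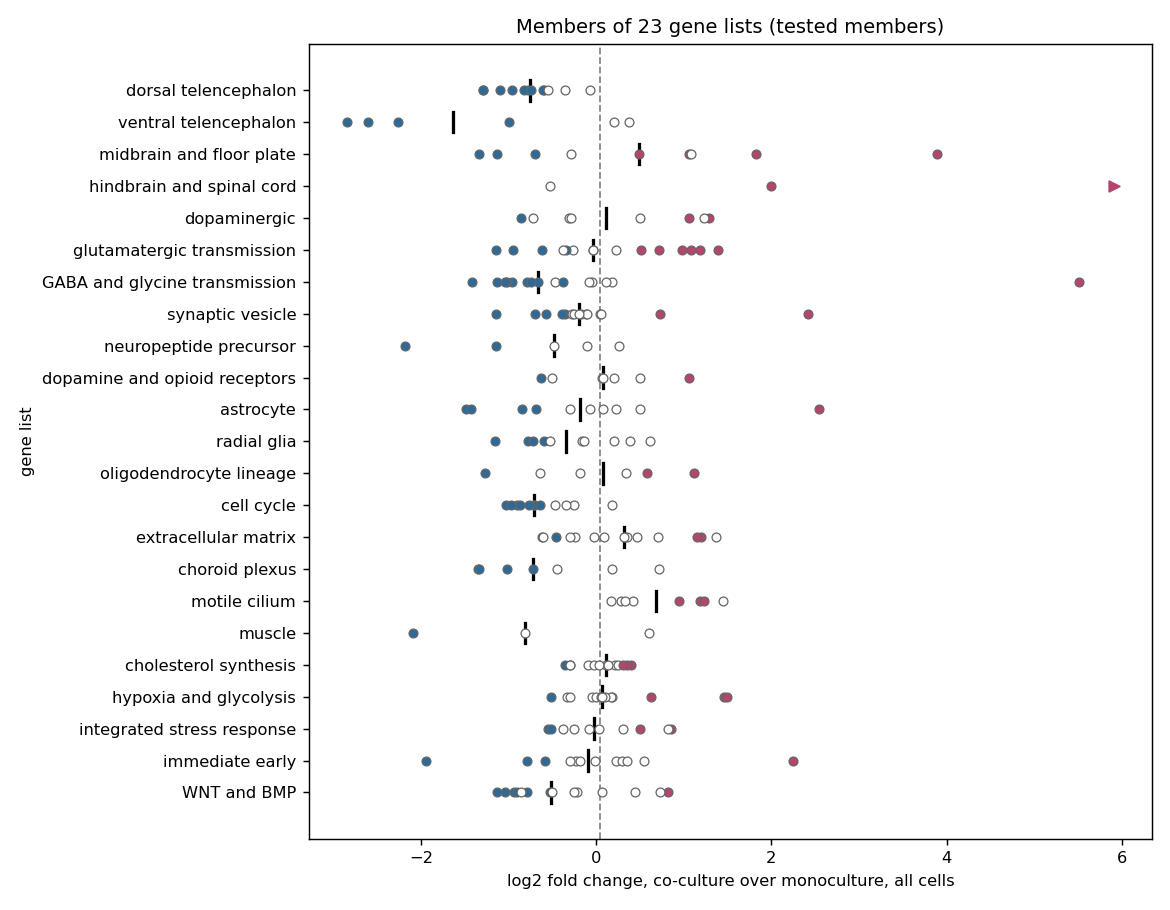
Log2 fold change of co-culture over monoculture in all cells (horizontal axis) for the tested members of 23 gene lists (vertical axis). Filled points passed an adjusted p of 0.05 and open points did not, black bars are list medians (none is drawn for the hindbrain and spinal cord list), and the dashed line is the median of all genes, 0.04. The triangle is HOXA2 at its lower bound of 5.91, and HOXA3, with 1 tag above 0 in monoculture, is not drawn. The dorsal telencephalon and cell cycle lists lie left of the dashed line but for 1 open point in the latter.

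Endothelial, microglial and pluripotency markers were low. Summed over 8 markers, endothelial genes were 11.98 to 23.5 CPM in co-culture and 20.9 to 44.1 CPM in monoculture, microglial genes 7.77 to 14.5 and 12.7 to 16.1 CPM, and pluripotency genes 12.2 to 21.5 and 9.94 to 21.9 CPM. Mesenchymal markers were high and overlapped, at 629 to 1716 and 562 to 1598 CPM. Muscle markers, TTN among them, summed to 28.8 to 43.4 CPM in co-culture and 40.2 to 448 CPM in monoculture.

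Whether the arrangements differed by another amount in Vehic than in AcMor tags was asked with an interaction term. edgeR called 0 of 22137 genes (0%), with 1702 at an unadjusted p under 0.05, and DESeq2 called 35. Without monoculture Vehic tag 2 edgeR called 47 genes, without AcMor tag 1 of monoculture 7, and without AcMor tag 3 of co-culture 1. The lowest adjusted p, 0.115, belonged to SLC4A4, a sodium bicarbonate cotransporter. It had 68.0 to 78.9 CPM in co-culture Vehic tags, 62.6 to 71.2 CPM in co-culture AcMor tags, 86.3 and 87.3 CPM in monoculture Vehic tags and 189 and 150.4 CPM in monoculture AcMor tags. IL1RAPL2, ENSG00000263745, ENSG00000288715 and the long noncoding SOX2-OT followed in that order, with interaction values of -1.19, 1.57, -2.64 and -0.79 on the log2 scale and an adjusted p of 0.2. With each tag left out in turn, the value of ENSG00000288715 ran from -3.109 to -1.688. The files give no symbol for the pair listed by identifier. All 5 passed with DESeq2 and with no filter on low counts. Without monoculture Vehic tag 2, SLC4A4, ENSG00000263745 and ENSG00000288715 passed, with adjusted p of 0.045, 0.0454 and 0.0214. A p that misses the threshold does not show that the differences were alike in the treatments.

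Sums over all cells mix classes, so the comparison was repeated in the 2 classes that had 20 or more cells in every tag. In excitatory neuron-like cells, which all lay in cluster 0 in co-culture and 99.6% in monoculture, 753 of 11788 genes passed (6.39%), 253 higher (2.15%) and 500 lower (4.24%). Of the genes tested, 3.50% had groups that did not overlap, 2.85% were also called, and 2.47% were called with a difference of at least 1 on the log2 scale. PLXDC2, a plexin-domain receptor, had 479, 617 and 903 CPM within the class as lowest, median and highest in co-culture and 186, 155, 150.4 and 169 CPM in monoculture, a log2 fold change of 1.95 ± 0.14 (SE) with an adjusted p of 3.86e-10. SYNDIG1, which regulates AMPA receptors at synapses, had 111, 158 and 190.1 CPM against 53.5, 38.7, 37.7 and 50.3 CPM, a log2 fold change of 1.74 ± 0.16 (SE). The growth factor receptor EGFR, STAC2 and TMCC3 rose by 1.86, 3.40 and 1.91. These genes reached the filter through the co-culture tags alone, where they are high, so they support no statement on the class. With each tag left out in turn, STAC2 ran from 2.86 to 4.015 in the 9 fits that gave it a value.

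Of the genes named by size in the class, the largest change was a decrease. CCBE1, a secreted matrix protein, had 0, 1.91 and 12.1 CPM as lowest, median and highest in co-culture and 118, 80.3, 118 and 111 CPM in monoculture, a log2 fold change of -4.39 ± 0.33 (SE) with an adjusted p of 5.43e-08. NKAIN2, which binds the sodium pump, had 65.7, 414 and 1117 CPM against 4608, 2507, 4144 and 4521 CPM, a log2 fold change of -3.12 ± 0.42 (SE). In both genes the highest co-culture tag lay well under the lowest monoculture tag. EBF3, COL13A1 and BRINP2 fell by 3.44, 2.80 and 2.58. With each tag left out in turn, the log2 fold change of EBF3 ran from -4.055 to -3.054. EBF3 and COL13A1 reached the filter through the monoculture tags alone, where they are high. In the glutamatergic list 2 of 14 tested members rose and 2 fell: GRM5, a metabotropic receptor, and GRIK2 rose by 1.53 and 1.26, and GRIA1 and GRIN2B fell by 0.96 and 0.91. GRIA1 had 439, 694 and 828 CPM against 1181, 1062, 1439 and 1376 CPM. KCNJ6, a potassium channel gene, and TRPM3 fell by 1.28 and 2.25, and SYT1 by 0.55. The dorsal telencephalon list showed 0 of 11 higher and 1 lower (NEUROD6, by 0.68), with a median of 0.02.

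In the same class VEGFA and PDK1 rose by 1.61 and 0.95, the only 2 of 9 tested members of the hypoxia and glycolysis list to pass. VEGFA had 35.8, 92.5 and 155 CPM as lowest, median and highest in co-culture and 28.9, 20.8, 37.4 and 29.4 CPM in monoculture, and the groups touched at co-culture Vehic tag 4. Of 13 cholesterol synthesis genes 4 rose and 0 fell, with a median of 0.46 against -0.00 for all genes in the class. FDFT1, squalene synthase, had 116, 136 and 149 CPM against 86.7, 83.3, 68.3 and 73.2 CPM, without overlap, a log2 fold change of 0.79 ± 0.12 (SE). HMGCS1, LSS and INSIG1 rose by 0.58, 0.65 and 0.76. Of 11 tested extracellular matrix genes 5 rose and 3 fell. COL1A1, a fibrillar collagen chain, and FN1, fibronectin, rose by 0.93 and 0.98, and the basement membrane genes COL4A1, COL4A2 and LAMB1 fell by 0.56, 0.71 and 0.48. COL1A2, COL3A1 and POSTN, the other risers, reached the filter through the co-culture tags alone, so nothing is read from the count. Beside them, the 8 mesenchymal markers, which include COL1A1, COL1A2, COL3A1 and POSTN, summed to 51.8 to 108 CPM in co-culture and 23.8 to 53.9 CPM in monoculture. The part of RNA from mesenchymal-like cells in these values was not tested.

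In cycling cells, 99.6% of which lay in cluster 5 in co-culture and 94.5% in monoculture, 1696 of 11605 genes passed (14.6%), 825 higher (7.11%) and 871 lower (7.51%). The groups did not overlap for 7.76% of the genes tested, 7.01% were also called, and 5.06% were called with a difference of at least 1 on the log2 scale. CNTNAP4, a synaptic adhesion gene, had 175, 268 and 325 CPM within the class as lowest, median and highest in co-culture and 17.5, 0, 7.10 and 15.6 CPM in monoculture, a log2 fold change of 4.4 ± 0.34 (SE). PRMT8, a brain arginine methyltransferase, had 41.2, 107 and 147 CPM against 6.55, 4.38, 2.09 and 5.20 CPM, a log2 fold change of 4.49 ± 0.32 (SE) with an adjusted p of 1.84e-09. Every co-culture tag exceeded every monoculture tag in both. MYOCD, a cofactor of serum response factor, HHIP, which binds hedgehog ligands, and the read-through gene CCDC169-SOHLH2 rose by 4.07, 3.63 and 3.43, and HHIP by 4.48 without monoculture Vehic tag 1. PRMT8, MYOCD, HHIP and CCDC169-SOHLH2 reached the filter through the co-culture tags alone, where they are high. Their p-values are no separate support.

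PDGFRA, a growth factor receptor of glial progenitors and mesenchyme, was 0 in cycling cells of all 8 co-culture tags and 40.7, 67.9, 10.9 and 7.80 CPM in the monoculture tags. Against a floor of 3 counts over the 8 tags together, 0.404 CPM, it was at least 78.8-fold lower, and at least 49.02-fold without monoculture Vehic tag 2, the highest. Of its monoculture counts in the class 79.9% came from cluster 17, a cycling cluster with DLX2, MKI67 and ST8SIA5 among its leading genes, which held 0.442% of the class in co-culture and 4.398% in monoculture. In cluster 5 alone PDGFRA was under the filter and could not be tested: it had 0 counts in co-culture and 35 in monoculture, 4.95 to 5.76 CPM without TMM scaling, which is at least 13.7-fold lower in co-culture, and at least 10.1-fold without co-culture AcMor tag 4. Of the GABA and glycine list 4 of 10 tested members fell within the class, GAD1, GAD2 and GABRB2 among them, and the homeobox gene MEIS2 fell too. DLX1, DLX2 and DLX5 reached the filter through the monoculture tags alone, where they are high, and support no statement on the group. DLX1 had 0, 2.03 and 10.1 CPM as lowest, median and highest in co-culture and 21.5, 21.9, 39.3 and 45.5 CPM in monoculture, a log2 fold change of -3.15 ± 0.36 (SE). With each tag left out in turn, this value ran from -3.86 to -3.02. GAD1 had 10.6, 23.5 and 31.5 CPM against 58.6, 56.9, 101 and 85.8 CPM, a log2 fold change of -1.79 ± 0.21 (SE). AHRR and ST8SIA5 fell by 3.49 and 3.17, and like PDGFRA they reached the filter through the monoculture tags alone. Beside these, the GABAergic neuron markers summed to 16.7 to 74.3 CPM in co-culture and 138 to 284 CPM in monoculture within the class, while the share of GABAergic neuron-like cells in the tags was also lower, and the part of RNA from those cells was not tested. In the cells of cluster 5 alone, a choice added after these values were seen, GAD1, AHRR and ST8SIA5 fell by 1.78, 3.59 and 3.10, the log2 fold changes of DLX1 and DLX5 were -3.07 and -3.85, and 1720 of 11607 genes passed, 861 higher and 859 lower.

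GRM5 rose in cycling cells too, with 276, 342 and 396 CPM as lowest, median and highest in co-culture and 127, 159.8, 81.8 and 85.8 CPM in monoculture, a log2 fold change of 1.65 ± 0.15 (SE). GRIA1 rose there by 0.69, whereas it fell in excitatory neuron-like cells and over all cells; the difference between classes was not tested. GRIA2 and SLC17A6 fell by 1.36 and 1.12, and SLC1A2, a glutamate transporter of astrocytes and radial glia, by 1.30. Beside these, 4 of 8 neuron markers were lower within the class and 0 higher, summing to 2050 to 3079 CPM in co-culture and 3321 to 4649 CPM in monoculture. Of 6 tested excitatory neuron markers 4 were lower and 1 higher, summing to 94.3 to 169 and 98.5 to 189.6 CPM, and the part of RNA from neurons was not tested. Of 13 cholesterol synthesis genes 6 rose and 0 fell, with a median of 0.55 against 0.02 for all genes in the class. HMGCS1, LSS and INSIG1, which rose in the excitatory class, rose here by 0.67, 0.66 and 0.85. VEGFA had 99.2, 256 and 332 CPM against 42.9, 43.8, 58.9 and 35.1 CPM, without overlap, a log2 fold change of 2.34 ± 0.24 (SE), and PDK1 and EGLN3, a hypoxia-induced prolyl hydroxylase, rose by 0.99 and 0.76, making 3 of 10 tested members of that list higher and 0 lower. Of the cell cycle list, MKI67 and CENPF fell by 0.69 and 0.76 and 10 of 12 did not pass. Over all genes of the class 7.51% were lower, so nothing is read from the count.

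**Figure D4:**
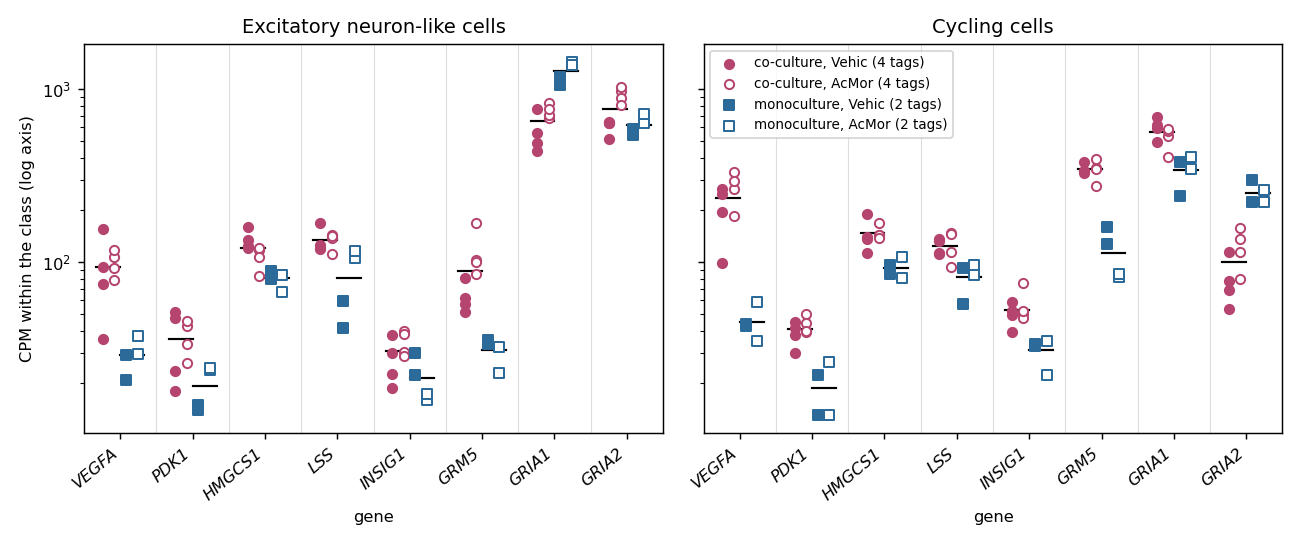
CPM within a class (log axis) per tag for 8 genes, in excitatory neuron-like cells on the left and cycling cells on the right. Circles are co-culture and squares monoculture tags, filled for Vehic and open for AcMor, with black bars at the means over 8 and 4 tags. GRM5 separates the arrangements in both classes, and GRIA1 lies lower in co-culture on the left and higher on the right.

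Of 10599 genes tested in both classes, 274 passed in the same direction in both, 92 higher and 182 lower, and 31 passed in opposite directions. Set against all cells, 450 of the 753 genes that passed in excitatory neuron-like cells also passed there in the same direction and 57 in the other, and for cycling cells these were 999 and 101 of 1696. The classes come from the same tags and are part of the sums over all cells, so these counts describe the lists and are not independent support.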

How the data were processed

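The deposited values are estimated counts: the authors' matrix holds 60286 genes by 43693 cells, and 54.3% of its entries are whole numbers as deposited. Per the submitters' processing notes, Salmon 1.7.0, alevin, Seurat 4.1.1 and the build hg38 were used; the annotation is not given in the sources used here. No cell was left out (each has at least 1006 genes). Doublets, called by simulation above a score of 0.416 (16.2% of the 12 tags' cells), were kept.

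Counts were summed per tag, rounded, filtered with filterByExpr and tested with edgeR 4.0.16 (TMM, robust quasi-likelihood, treatment as covariate, Benjamini-Hochberg adjusted p of 0.05). Depth runs from 5027412 to 58777177 counts per tag. DESeq2 1.42.0 was an alternative. On simulated counts for the comparison of all cells (21850 genes) edgeR recovered 66% of 1.5-fold and 100% of 2-fold changes, with 6.63% of calls false. The simulation gave all genes the same spread and changed 50 genes per fold, drawn from genes well counted in the smallest tag. It does not show recovery for genes with few counts. Clusters came from leidenalg 0.10.2 (30 components, 20 neighbours, resolution 0.8) on all cells; a class needed at least 3 and 40% of its fixed markers (2-fold, 10% of cells), by a rule set after the clusters were seen, and ties, clusters with most cells called doublets and those led by another class's markers stayed unnamed. Shares were compared over 5 classes with exact permutation tests (225 arrangements).

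The tags compared, the 23 gene lists (267 genes) and the markers were chosen with earlier results of these data known. Genes named were the 12 largest increases and decreases in all cells (5 in a class) among called genes with separate groups, 5 CPM or more and a gene symbol, up to 4 per list by adjusted p, 5 for the interaction, and further list members with their values. Same-numbered Vehic and AcMor tags were not paired by the labels. Some list members are counted but not reported by name here. Coordinates are from GENCODE v29, upstream sequences from RefSeq (GRCh38.p14).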

Additional observations from a re-analysis of the deposited data

Results flagged for a closer look

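In groups of 4 co-culture tags, 15 values stood apart from the other 3 tags, with a gap to the nearest tag past Dixon's critical share of the range. In all, 277 such groups were examined, and chance alone sets apart about 1 in 20 groups. AcMor tag 4 had 3.48 CPM of the immediate early gene JUNB (others 0.527 to 0.815), 19.2 CPM of NR4A1 (others 8.15 to 9.96) and, in cycling cells, 14.6 CPM of CCDC169-SOHLH2 (others 6.17 to 6.88). It also had 0.145% of its cells in cluster 2, and Vehic tag 3 had 0.133%, where the other tags of each group had 0. Where the other tags are 0, any value above 0 passes this rule, as here and for DLX5 in cycling cells (below). These values, and that of DLX5 over all cells in Vehic tag 4 (below), rest on very few cells or counts.

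Vehic tag 4 had 0.114 CPM of DLX5 (others 0.874 to 0.917), 3.08 CPM of PDGFRA (others 1.57 to 1.75) and, in excitatory neuron-like cells, 58.3 CPM of TMCC3 (others 14.1 to 18.4). Vehic tag 3 had 99.6 CPM of GRIA4 (others 128 to 129.9) and 1.52 CPM of DLX5 in cycling cells, which was 0 in the other tags. AcMor tag 1 had 209 CPM of GRIA4 (others 134 to 139).

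Vehic tag 2 had 27.3 CPM of MBP (others 32.6 to 32.96) and 9.93 CPM of ASNS (others 6.27 to 6.82). Vehic tag 1 had 1.57 CPM of EN2 (others 1.00 to 1.099), and AcMor tag 2 had 2.28 CPM of ADTRP (others 1.32 to 1.47).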

How the results depend on the processing

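The count of 6283 genes over all cells became 3335 in Vehic tags alone and 3378 in AcMor tags alone, and ran from 4744 (without monoculture Vehic tag 1) to 6764 when each tag was left out. The interaction gave 35 genes with DESeq2, 274 with no filter on low counts, and 0 to 47 when each tag was left out. In Vehic tags alone the excitatory neuron-like class gave 205 genes and the cycling class 577; leaving out each tag gave 524 to 796 and 1229 to 1824. In Vehic tags alone, AcMor tags alone and tags averaged by number, the share differences were -7.86, -19.6 and -13.8 points for GABAergic neuron-like cells, -4.31, -4.02 and -4.17 for astrocyte-like, -2.51, -6.86 and -4.68 for cycling and -10.5, -5.71 and -8.10 for excitatory neuron-like cells, none past the threshold; within 1 treatment the smallest p possible is 0.0667. With the lower clustering resolution of 0.4, the excitatory and astrocyte-like differences were -13.4 and -10.1 points. The astrocyte-like class was another cluster there, with CXCL14, CCN2 and EDN1 among its leading genes, at a mean of 18.2% in co-culture and 28.3% in monoculture. The cluster with GFAP among its leading genes was unnamed there, at 4.71% in co-culture and 5.14% in monoculture. Choices added after seeing the data gave -0.921 for cycling cells with cluster 34 among them, 9.91 for astrocyte-like cells with cluster 8 among them, and, outside the co-culture clusters, 10.6 for cycling, 9.46 for excitatory and 10.6 for mesenchymal-like cells, the last now past the threshold. Leaving out each tag gave -6.14 to -3.22 for cycling cells and 1.22 to 3.62 for mesenchymal-like cells, the latter past the threshold without co-culture Vehic tag 1 (2.88) or monoculture Vehic tag 2 (3.62). The cause of these shifts was not tested. Same-numbered Vehic and AcMor tags did not deviate together (correlations of -0.0729, 0.0286, -0.00925 and 0.0851 in co-culture and 0.0327 in monoculture), and with the replicate number as a block the counts were 5017 over all cells, 454 in excitatory neuron-like and 1443 in cycling cells.

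Of the 99 named genes called over all cells, 16 lost the call when some tag was left out, 20 in Vehic tags alone, 24 in AcMor tags alone and 11 with the replicate number as a block. COL1A2, COL3A1, OPRM1, HK2 and TRIB3 lost it within either treatment. In Vehic tags alone GAD2, OPRD1, CCNB1, PCNA, PDK1, DDIT3, ASNS and NR4A1 were among the others that did, and in AcMor tags alone STX1A, MBP, CSPG4, LAMB1 and PSAT1. With the block these included OPRM1, HK2 and ASNS. None of the 24 with the largest differences lost it under any alternative that gave a value. Of the 10 genes named in each class, TMCC3 lost the call with the block and NKAIN2 in Vehic tags alone, both in excitatory neuron-like cells. Not all 10 had a value in every alternative. In Vehic tags alone 4 had none in excitatory neuron-like cells and 2 in cycling cells. With doublets removed 2 had none in cycling cells. No named gene changed direction where it had a value. Depth limits the rare transcripts: over all cells, genes below about 1 CPM rest on few counts in the smallest tag. Within a class the limit is higher. The smallest tag total after the filter was 204913 counts in excitatory neuron-like and 423629 in cycling cells. The fewest cells in a tag were 28 and 41. Class values of several CPM can therefore rest on few counts.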
